A study of Mus musculus with 4 samples.

Results

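Hair keratins and keratin-associated proteins, the building materials of the hair shaft and of the sheath around it, were read on 96 probes for 77 genes of a whole mouse genome array with 39429 non-control probes for 31896 genes. The members were taken by name. They are every probe whose gene name starts with Krtap, and every probe for the keratins Krt25 to Krt28, Krt31 to Krt36, Krt39, Krt40, Krt71 to Krt75 and Krt81 to Krt86. Of the genes, 24 were keratins (30 probes) and 53 were keratin-associated proteins (66 probes). The array names 9 of the genes by a symbol other than the one RefSeq gives for the same transcript. Its Krt83 is Krt87 in RefSeq, its Krtap16-4 is Krtap19-4, its Krtap16-8 is Krtap6-5 and its Krtap8-2 is Krtap19-5. Array names are kept below.

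Keratins form filaments from pairs of one type I and one type II chain. In the growing follicle the hair shaft and the inner root sheath, which moulds the shaft, each switch on their own pairs late in differentiation, and the companion layer beside the sheath has Krt75. Keratin-associated proteins fill the space between shaft filaments: high-sulfur and ultrahigh-sulfur families crosslink them, and glycine-tyrosine families, many of them on chromosome 16, are a further class. Follicle stem cells of the bulge lie outside these layers and are known for basal keratins instead.

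The cells were primary skin epithelial cells of adult C3H/HeN mice, sorted for the integrin chain CD49f and for CD34. The 0p RNA came from cells after sorting, and the 15p RNA from CD49f+ CD34+ cells sorted after the 15th of a row of 10-day cultures on collagen I in 60-mm dishes with Wnt-3a, so the comparison addressed what differs between the start and the end of serial culture. By the labels, 0p and 15p share the Wnt-3a treatment as well as the strain and the sort, but the labels do not settle whether the 0p cells were cultured with Wnt-3a before RNA was taken. Each of 4 arrays held 1 RNA in Cy5 and the other in Cy3, as 2 biological replicates with a dye-swapped pair of arrays apiece. Separate animals are not stated for the replicates, so p-values measure only the spread between these samples. In bulk RNA, fewer cells that express a gene and less RNA per cell cannot be told apart.

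Some member probes hold short motifs that recur in their families or closely match probes of other genes. This matters for what their values can be taken to measure. Positions are in mouse build mm9 as in the array files.

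The first set is a glycine-tyrosine pair on chromosome 16, with capitals where the lower line differs from the upper one.
Krtap16-4 (chr16:88885057-88885116, minus strand): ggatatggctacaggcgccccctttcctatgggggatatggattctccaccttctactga
Krtap8-2 (chr16:88896479-88896538, minus strand): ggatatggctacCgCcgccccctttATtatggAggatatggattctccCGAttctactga
These probes matched at 52 of 60 positions (86.7%), with A13C, G15C, C26A, C27T, G33A, A49C, C50G and C51A counted from 1 at the 5′ end of the Krtap16-4 probe.

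The second set shows the repeats of families whose probes gave signal, with the motif CTGCTG in capitals for Krtap5 genes of chromosome 7 and the motif TATGGNT in capitals for genes of chromosome 16.
Krtap5-2 (chr7:149360743-149360802, minus strand): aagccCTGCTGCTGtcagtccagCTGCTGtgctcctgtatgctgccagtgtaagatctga
Krtap5-5 (chr7:149415298-149415357, minus strand): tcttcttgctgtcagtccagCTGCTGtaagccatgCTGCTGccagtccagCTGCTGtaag
Krtap5-1 (chr7:149482567-149482626, minus strand): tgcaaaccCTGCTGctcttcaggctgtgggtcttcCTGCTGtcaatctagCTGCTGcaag
Krtap20-2 (chr16:89206222-89206281, plus strand): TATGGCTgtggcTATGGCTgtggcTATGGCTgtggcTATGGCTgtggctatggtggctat
Krtap20-2, second probe (chr16:89206262-89206321, plus strand): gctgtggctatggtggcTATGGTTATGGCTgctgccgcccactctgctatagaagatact
Krtap16-8 (chr16:89047852-89047911, minus strand): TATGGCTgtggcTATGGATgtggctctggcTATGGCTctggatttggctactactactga
Searched on both strands, CTGCTG was in 13 of 66 keratin-associated probes (19.7%) and TATGGNT in 13 (19.7%), against 5.22% and 2.70% of all non-control probes. Both motifs were picked from keratin-associated probes, so their higher shares there are a description only.

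Most of these genes gave little or no signal in either RNA. A probe was called detected where the scanner software flagged it as well above background for at least 1 of the RNAs on every one of the 4 arrays. This held for 29 of 96 member probes (30.2%), against 21660 of all 39429 probes (54.9%). Another 45 member probes were above background in no channel of any array, against 28.2% of all probes. Over genes, 22 had a detected probe, 18 had one above background in some channel only, and 37 had none. A gene counted as detected where any of its probes was. Of 13 genes with several probes, 2 had all of them detected, 4 had none, and 7 had both kinds. Among these 7, Krt36, Krt85, Krtap5-2, Krtap16-8 and Krtap20-2 each had a probe above background in no channel. For such genes detection rests on part of the probes. With the looser rule of 1 channel on 1 array, 51 member probes counted (53.1%, against 71.8% of all). Keratins outside the set, such as those of basal and simple epithelia, had a detected probe for 22 of 30 genes.

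**Figure D1:**
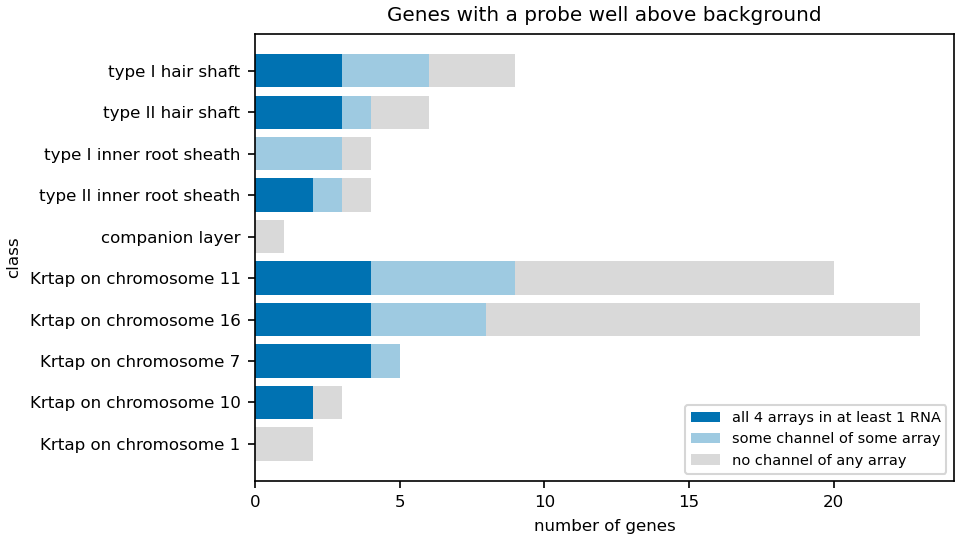
Number of genes (horizontal axis) in each class of hair keratin and of keratin-associated protein by chromosome, split by whether a probe was detected (all 4 arrays in at least 1 RNA), was above background in some channel of some array, or in none. The Krtap genes of chromosome 7 are the class with every gene above background in some channel, and 37 of 77 genes over all classes have none.

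Among type I hair shaft keratins 3 of 9 genes were detected: Krt31 and Krt33a, cortex keratins, and Krt36. Krt32 and Krt34 were above background on 1 array in each RNA, Krt39 in 0p on 1 array, and Krt33b, Krt35 and Krt40 on none. Among type II hair shaft keratins 3 of 6 were detected, Krt81, Krt85 and Krt86. Krt83 was above background in 0p on 1 array, and Krt82, a cuticle keratin, and Krt84 on none.

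Inner root sheath keratins were detected among the type II genes and not among the type I genes. Of the type I keratins 0 of 4 were detected; Krt26, Krt27 and Krt28 were above background on 1 array in each RNA and Krt25 on none. Of the type II keratins Krt72 and Krt73 were detected, Krt74 was above background in each RNA on 1 array, and Krt71 on none. The companion layer keratin Krt75 was above background on none, with processed intensities (background-subtracted and dye-normalised by the scanner software) of 2.53, 3.11, 2.93 and 5.97 in 15p and 2.56, 2.23, 2.58 and 4.99 in 0p. Here and below, values by array come in 1 order: replicate 1 with 15p in Cy5, its dye swap, replicate 2 with 15p in Cy5, and its dye swap.

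The keratin-associated proteins differed by family in how many probes were detected. The Krtap5 genes of chromosome 7, an ultrahigh-sulfur family of the hair cuticle, had 7 of 10 probes detected and 4 of 5 genes. On chromosome 10 both Krtap10 genes were detected and Krtap12-1 was not. On chromosome 11, which carries high- and ultrahigh-sulfur families, 4 of 20 genes were detected, Krtap1-4, Krtap4-8, Krtap4-16 and Krtap9-1, and 11 had no probe above background. On chromosome 16, 4 of 23 genes were detected, Krtap8-2, Krtap16-4, Krtap16-8 and Krtap20-2, and 15 had none.

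By the array's names, 8 of 24 family numbers had a detected probe, and 13 families with 19 genes had no probe above background. By current RefSeq symbols 8 of 25 families had a detected probe and 14 families with 18 genes had none above background, since Krtap16-8 then counts for the Krtap6 family and Krtap8-2 for the Krtap19 family. In the 13 families, the members of highest mean net intensity (spot intensity less the scanner offset) were Krtap2-4, Krtap3-2, Krtap6-1, Krtap7-1, Krtap11-1, Krtap12-1, Krtap13, Krtap14, Krtap17-1, Krtap22-2, Krtap24-1, Krtap26-1 and Krtap28-13. Between these groups stood 10 genes above background in some channels only. Krtap4-1 was above it on 3 arrays in each RNA, Krtap16-10 on 3 arrays in 15p and 2 in 0p, and Krtap9-5 on 2 arrays in 15p and 3 in 0p. Krtap5-4 and Krtap19-7 were above it in each RNA on 2 arrays, Krtap31-1 on 1 in 15p and 2 in 0p, and Krtap16-1 on 1 in each. Krtap4-9 was above it on 2 arrays in 0p, and Krtap1-5 and Krtap15 on 1, with none in 15p.

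The number of member probes above background followed the dye on each array. On the arrays of replicate 1, 37 member probes were above background in 15p and 31 in 0p with 15p in Cy5, and 30 in 15p and 39 in 0p on the dye swap. In replicate 2 the counts were 36 and 33, then 39 and 46. The channel labelled with Cy5 had more on 4 of 4 arrays, whichever RNA it held, so these counts do not separate 15p from 0p cells. Over all probes the Cy5 channel was the higher on the same 4 arrays, with 58.9% in 15p and 56.5% in 0p on the first, 55% and 59.3% on its dye swap, 58.1% and 57.7% on the third and 64.8% and 68.1% on the last.

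Detected member probes were richer in G+C than the others. Their median G+C content was 53.3%, against 41.7% for member probes above background in no channel, while over all probes the detected ones had 43.3% and the others 41.7%. Below 45% G+C, 3 of 39 member probes were detected (7.69%, against 52.9% of all probes), from 45% to below 50%, 5 of 21 (23.8%, against 54.2%), and from 50% up, 21 of 36 (58.3%, against 63.6%). The gap to the rest of the array was thus wide at low G+C and narrow at high G+C. These bounds were chosen with the values in view, and the part of base composition in detection was not tested.

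**Figure D2:**
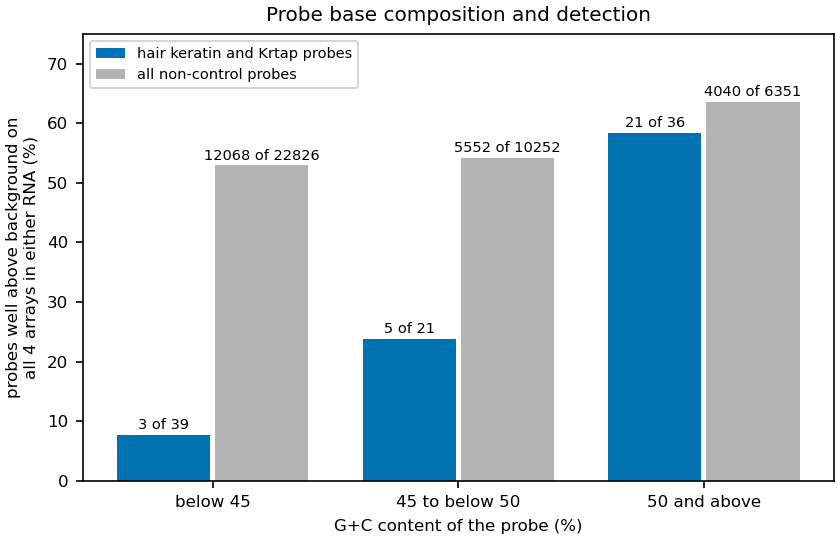
Percentage of probes well above background on all 4 arrays in either RNA (vertical axis) by G+C content of the probe (horizontal axis), for hair keratin and keratin-associated probes (blue) and for all non-control probes (grey), with counts over the bars. Member probes rise from 7.69% to 58.3% over the 3 bins, and all probes from 52.9% to 63.6%.

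The shares of probes holding each motif shown above at least once were compared between detected and other probes, without a test. The motifs came from families whose probes gave signal, and every probe printed for them was detected. Their shares in detected probes are thus not independent of detection and support nothing about it. CTGCTG was in 8 of 19 detected keratin-associated probes (42.1%) and in 5 of 47 others (10.6%), and TATGGNT in 5 of 19 (26.3%) and 8 of 47 (17.0%), a gap of few probes. Over all probes CTGCTG was in 5.53% of the detected and 4.85% of the others, and TATGGNT in 2.41% and 3.06%. Compared without gaps over at least 40 bases, 7 of 29 detected member probes and 4 of 67 others were 80% or more identical to a member probe of another gene. To a probe outside the set this held for 7 of 29 and 3 of 67. Which transcripts such probes bound was not tested, and the gene behind their values is uncertain.

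Near-identical probes did not always share detection. The Krtap16-8 probe shown above matched a probe of Krtap6-1, a glycine-tyrosine gene on the same chromosome, at 57 of 60 positions (95%). The Krtap16-8 probe was above background in both RNAs on all 4 arrays, and the Krtap6-1 probe on none. The upper Krtap20-2 probe matched a probe of Gm10061, no member, at 39 of 40 positions, and both were detected.

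No member was called higher or lower in 15p cells (0 of 22 genes tested; limma with Benjamini-Hochberg adjustment over 17376 genes, lowest adjusted p = 0.749). Over all genes 0 were called (0%). At an unadjusted p under 0.05 there was 1 member, Krt72, lower in 15p (4.55%, against 3.38% of all genes lower), and 0 higher (against 2.92%). Krt72 passed the detection rule through 0p alone, as did Krtap1-4, so its place among the tested genes was not independent of its ratio and the count supports nothing. Member log2 ratios of 15p over 0p had a median of 0.027 and ran from -0.14 to 0.12, with an SD of 0.058 over genes, against a median of 0.0025 and an SD of 0.076 for all genes. The 95% interval of each ratio stayed within 0.28 of 0 and held 0 for 21 of 22 members. These sizes hold for a normexp background offset of 50: with the scanner software's processed signals, median-centred, and with the value table of the series, the log2 ratio was -0.63 and -0.59 for Krt72, 0.20 and 0.25 for Krt86, -0.24 and -0.20 for Krtap1-4, and -0.22 and -0.18 for Krtap4-16, again without a call.

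**Figure D3:**
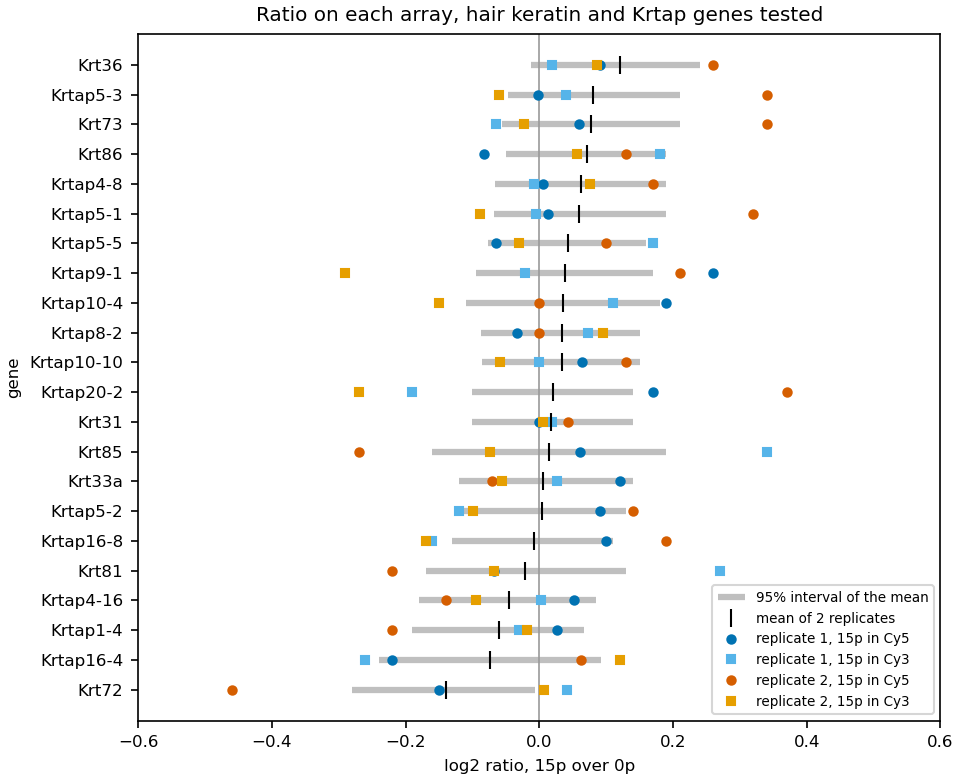
Log2 ratio of 15p over 0p (horizontal axis) for the 22 detected genes (vertical axis), with 1 point per array, a bar at the mean of 2 replicates and a grey 95% interval from limma. Array values scatter on both sides of 0 for all genes but Krt36, and the means run from -0.14 for Krt72 to 0.12 for Krt36.

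Among type I hair shaft keratins, Krt36, also a keratin of nail and tongue, had processed intensities of 79.1, 84.8, 95.1 and 82.1 in 15p and 76.1, 80.3, 81.1 and 72.7 in 0p. The 15p value was the higher on every array, by a little, and the ranges of the RNAs overlap. Its log2 ratios were 0.091, 0.019, 0.26 and 0.087, with a mean of 0.12 ± 0.085 (SD, n = 2; 95% interval -0.012 to 0.24, adjusted p = 0.749). Krt36 was the 1 member positive on all 4 arrays (4.55%, against 3.67% of all genes), and 0 were negative on all 4 (against 3.11%). Its other detected probe had -0.026 ± 0.028.

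Krt31 and Krt33a showed no side. Krt31 had 63.8, 58.4, 77.6 and 62.4 in 15p and 65.3, 57.1, 77.5 and 58.3 in 0p, values that differ more between arrays than between RNAs. Its mean log2 ratio was 0.017 ± 0.010 (SD, n = 2). Krt33a, close to background at 13.7 to 30.1 over both RNAs, had 0.0057 ± 0.098, with positive ratios in replicate 1 (0.12 and 0.026) and negative ones in replicate 2 (-0.071 and -0.056).

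The type II hair shaft keratins varied more between arrays. Krt85, which pairs with type I keratins in matrix and precortex, had processed intensities of 3450, 3620, 2890 and 3170 in 15p and 3370, 2860, 3550 and 3290 in 0p on its probe of highest net intensity. The ranges overlap, and 15p was higher in replicate 1 and lower in replicate 2. Its log2 ratios were 0.061, 0.34, -0.27 and -0.073, with a mean of 0.014 ± 0.26 (SD, n = 2), the largest replicate SD of the 22 members.

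Krt81, a cortex keratin, shared its highest and lowest array with Krt85. It had 604, 670, 451 and 514 in 15p and 638, 535, 550 and 532 in 0p, with log2 ratios of -0.068, 0.27, -0.22 and -0.067 and a mean of -0.022 ± 0.17. In both genes the dye swap of replicate 1 was highest and the replicate 2 array with 15p in Cy5 lowest. The Krt81 probe and this Krt85 probe matched at 51 of 57 positions (89.5%). Whether they read separate transcripts was not tested, so the shared order cannot be taken as that of separate genes.

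The other detected Krt85 probe had these arrays the other way round, with the replicate 2 array highest and the replicate 1 dye swap lowest. It had 157, 126, 195 and 136 in 15p and 145, 148, 169 and 145 in 0p, with log2 ratios of 0.11, -0.21, 0.16 and -0.074 and a mean of -0.0035 ± 0.064. The last Krt85 probe was above background on none of the arrays, so the values under the name Krt85 differ by probe. By the array files, the Krt85 probe of highest net intensity lies on the plus strand and the others on the minus strand. Its position is chr15:101307819-101307878, and the Krt86 probe, also on the plus strand, lies at chr15:101310355-101310414. The other detected Krt85 probe lies at chr15:101346117-101346176. Which gene the probe of highest net intensity reads was not tested, so the gene behind its values is uncertain.

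Krt86, near background, had 20.0, 21.4, 22.9 and 16.4 in 15p and 19.8, 15.9, 17.3 and 15.0 in 0p. Every 15p value was above its 0p partner in processed intensity, but after loess the ratios were -0.083, 0.18, 0.13 and 0.057. The mean was 0.071 ± 0.031 (SD, n = 2; adjusted p = 0.818).

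Of the inner root sheath keratins, Krt72 had the lowest ratio of all members. It had processed intensities of 65.2, 14.1, 3.53 and 20.9 in 15p and 73.0, 13.5, 15.8 and 22.3 in 0p, and was above background on 2 arrays in 15p and on 4 in 0p. Log2 ratios were -0.15, 0.041, -0.46 and 0.0067, so both arrays with 15p in Cy5 were negative and both dye swaps slightly positive. The mean was -0.14 ± 0.12 (SD, n = 2; 95% interval -0.28 to -0.0066, adjusted p = 0.749). Leaving out the first of these arrays, a fit of the other 3 called Krt72 lower (-0.22, adjusted p = 0.00691), as it did 9.12% of all genes, with the lone array of its orientation adding nothing to the spread, and over the alternatives tried its ratio ran from -0.63 to -0.064.

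Krt73 leaned on 1 array. It had 421, 418, 508 and 323 in 15p and 400, 432, 394 and 323 in 0p. Only the replicate 2 array with 15p in Cy5 stood apart, with a log2 ratio of 0.34 beside 0.060, -0.065 and -0.023. Its mean was 0.077 ± 0.11 (SD, n = 2; adjusted p = 0.818).

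Among the keratin-associated proteins, the Krtap5 genes had mean log2 ratios of 0.059 ± 0.078 (Krtap5-1), 0.0044 ± 0.026 (Krtap5-2), 0.080 ± 0.087 (Krtap5-3) and 0.043 ± 0.011 (Krtap5-5). Krtap5-3 had 248, 237, 227 and 160 in 15p and 250, 227, 174 and 164 in 0p, and the third array alone showed a clear gap. Its log2 ratios were -0.0019, 0.040, 0.34 and -0.060 (adjusted p = 0.804). Leaving out the first of these arrays, the same fit that called Krt72 called it higher (0.17, adjusted p = 0.0496), as it did 8.83% of all genes, and leaving out the third gave a ratio of -0.0059.

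Krtap5-5 was read by 3 detected probes, with means of -0.027 ± 0.081, 0.029 ± 0.11 and 0.043 ± 0.011, and the probes of Krtap5-1 had 0.034 ± 0.029 and 0.059 ± 0.078. The Krtap10 genes had 0.034 ± 0.0030 (Krtap10-10) and 0.036 ± 0.16 (Krtap10-4). The small SD of Krtap10-10 hides arrays at 0.064, -7.6e-05, 0.13 and -0.058, because the dye pair is averaged first. On chromosome 11 the means were 0.062 ± 0.089 for Krtap4-8, -0.045 ± 0.10 for Krtap4-16, 0.038 ± 0.11 for Krtap9-1 and -0.060 ± 0.081 for Krtap1-4, which was above background on 3 arrays in 15p and 4 in 0p.

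The glycine-tyrosine gene Krtap16-4 split by replicate. Its processed intensities were 998, 974, 902 and 741 in 15p and 1150, 1170, 837 and 686 in 0p, so 0p was higher on both arrays of replicate 1 and 15p on both of replicate 2. Log2 ratios were -0.22, -0.26, 0.062 and 0.12, with a mean of -0.074 ± 0.23 (SD, n = 2; adjusted p = 0.845). In all, 5 of the 22 members had one sign on both arrays of replicate 1 and the other on both of replicate 2, against 4.58% of all genes, a description with no test, these being Krt33a, Krt85, Krtap4-16, Krtap10-4 and Krtap16-4. The replicates were on separate slides, so replicate and slide cannot be told apart.

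Krtap8-2, whose probe shares 52 of 60 positions with that of Krtap16-4, did not show this split. It had 236, 228, 223 and 196 in 15p and 254, 214, 222 and 181 in 0p, with log2 ratios of -0.033, 0.073, -0.00039 and 0.096. Its mean was 0.034 ± 0.020, and its other detected probe had -0.038 ± 0.015. Krtap16-8 had -0.0075 ± 0.028 on its detected probe. Its other probe, printed 10 times on each array and not detected, showed what repeat spots of 1 probe give near background: log2 ratios of single spots had an SD of 0.098 to 0.15 within an array.

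Krtap20-2 followed the dye. It had 259, 210, 179 and 149 in 15p and 227, 243, 123 and 188 in 0p, and the RNA in Cy5 was higher on all 4 arrays. Its log2 ratios of 15p over 0p were 0.17, -0.19, 0.37 and -0.27, which average to 0.020 ± 0.040 (SD, n = 2). Turned to Cy5 over Cy3 the ratio was 0.25 (limma, dye term with replicate as a block, adjusted p = 0.0296). Krtap20-2 was the 1 member of 22 called higher in Cy5 (4.55%, against 4.30% of all genes), and 0 were called higher in Cy3 (against 1.89%). The dye calls depended on the processing: with a normexp background offset of 0 there were 0 over all genes, and with median centring in place of loess 13897, with 18 members among them. The other detected Krtap20-2 probe had the same signs, 0.068, -0.035, 0.19 and -0.21. The probe that stood for Krtap20-2 matched a detected probe of Gm7303, no member, at 37 of 40 positions (92.5%). Which transcript it bound was not tested, so the dye ratio may not be that of Krtap20-2.

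**Figure D4:**
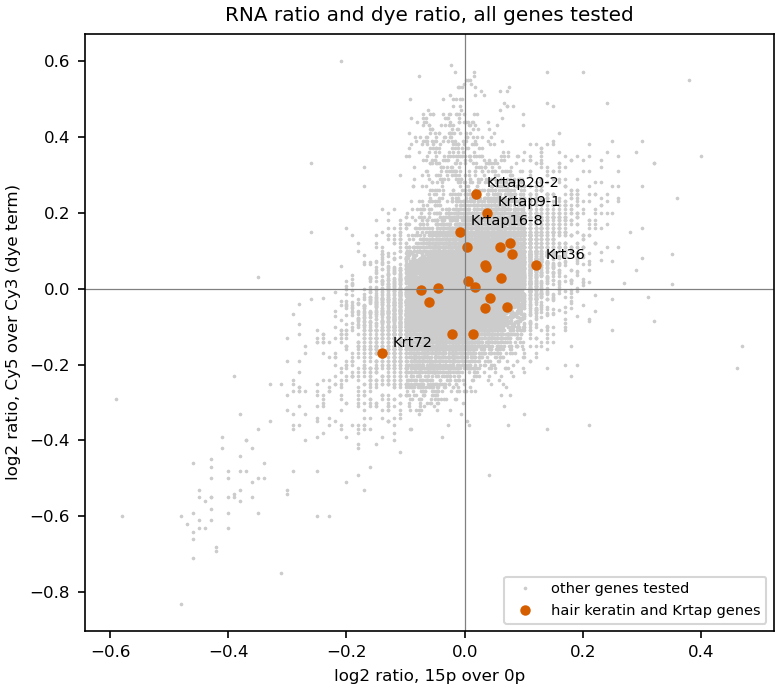
Log2 ratio of 15p over 0p (horizontal axis) against log2 ratio of Cy5 over Cy3 (vertical axis) for all genes tested (grey) and the 22 detected members (orange), both to 2 significant digits. The members lie within the cloud of all genes, with Krtap20-2 highest on the dye axis at 0.25 and Krt72 lowest on both axes.

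The sign of the ratio turned with the dye for 9 of 22 members, against 32.3% of all genes. The ratio was positive wherever Cy5 labelled 15p and negative on the dye swaps for 7 of 22 genes, against 18.1% of all genes, and the reverse for 2, Krt72 and Krtap8-2, against 14.1%. The replicate 2 array with 15p in Cy5 held the largest absolute ratio of 13 of 22 members, against 56.5% of all genes. Mean ratios were positive for 16 of 22 members (72.7%, against 51.4% of all genes). The lean varied with the settings. It was 72.7% with a normexp offset of 0 (52.3% of all genes) and with the value table (53%). With the mean of a gene's probes it was 68.2% (51.5% of all genes), and with median centring in place of loess 68.2% (63.4%). With the wider probe filters it was 55% to 55.8% (50.3% to 50.5%). Without the replicate 1 dye swap, 11 of 22 were positive (50%, against 54.2% of all genes). With median-centred processed signals 10 of 22 were positive (45.5%, against 34.0% of all genes, whose median was then -0.034).

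Other genes of the hair program were taken from lists chosen by their known roles. Of 12 regulators of matrix and shaft differentiation 11 were tested and 0 were called in either direction, at any adjusted or unadjusted p under 0.05; 8 had positive and 3 negative ratios, with a median of 0.028. Lef1, a Wnt effector of the hair matrix, passed background in each RNA on 1 array. Of 7 genes of hair structure and hardening 5 were tested and 0 were called, 3 positive and 2 negative, with a median of 0.037; Dsg4, a desmosomal cadherin of the shaft, and Crym were above background on no array. The largest absolute ratios were those of Msx2, a homeobox gene of the matrix (0.12 ± 0.079), Hr, a corepressor needed for hair cycling (0.11 ± 0.037), and S100a3, a calcium-binding protein of the cuticle (0.10 ± 0.18). Hr had 0.18, -0.010, 0.53 and -0.25, a split by dye like that of Krtap20-2.

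For the libraries as a whole, 55.5% to 68.3% of spots were well above background by array and dye, and the number of arrays limits the precision. The basal and bulge genes Krt5, Krt14, Krt15, Itga6, Trp63 and Sox9 were detected in both RNAs on all 4 arrays, and 0 of these 6 were called. At an unadjusted limma p under 0.05 there were 3 of them, each with an adjusted p of 0.749. Krt14 (0.19 ± 0.12) and Krt15 (0.17 ± 0.033) had positive log2 ratios. Sox9 (-0.38 ± 0.60) had a negative one that rested on the third array, at -1.56. By array, Krt14 had 0.085, 0.12, 0.73 and -0.18, with the third array largest. Krt15 had 0.31, -0.012, 0.48 and -0.093, a split by dye. Cd34, the other sort marker, was above background with 1 of 2 probes on 1 array in 0p, and the bulge genes Lgr5 and Lhx2 on none. Summed processed intensity of 5 melanocyte markers was 90.7 to 134 in 15p and 91.5 to 134 in 0p, with Tyrp1 above background on no array. The sums were 581 to 661 and 546 to 714 for 7 fibroblast and papilla markers (Dcn, Lum, Pdgfra and Corin on none), 251 to 556 and 281 to 421 for 5 immune markers (Lyz2 on none), and 1620 to 1960 and 1560 to 2240 for 3 endothelial markers (Cdh5 on none). Of each of these 4 lists 2 genes were tested and 0 were called, and their part in the member values was not tested.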

How the data were processed

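Mean spot intensity and local background intensity were extracted by the authors with Agilent Feature Extraction 10.7.3.1, per the file headers. Processed intensity in the deposited files was background-subtracted and dye-normalised within each array, net intensity had only the scanner offset taken off, and the log10 ratio is that of processed Cy5 over Cy3, per the file headers. Deposited flags, per the file headers, mark spots as well above background, as saturated or as irregular. The deposited value table holds the same log10 ratios, within 0.0045, with each column's median at 0 and no turn for the dye swap. It was used as an alternative.

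In R 4.3.3 with limma 3.58.1 and data.table (version 1.17.8), intensities were corrected by normexp (offset 50, all spots) and loess within arrays, with control spots at weight 0. Irregular spots (154 to 286 of 43020) were left out, and 0 were saturated. Spots of a probe were averaged; a probe counted as above background on an array where at least as many of its spots were flagged so as not. Ratios were turned to 15p over 0p by the dyes in the labels, each dye-swapped pair was averaged, and lmFit and eBayes tested the 2 replicate values against 0 (two-sided) at an adjusted p of 0.05 (prior degrees of freedom 8.88, residual 1). The detected probe of highest mean log intensity, over both dyes and all arrays after these corrections, stood for its gene. Genes outside the set took RefSeq symbols (GRCm38.p6) through transcript accessions, which matched 26055 probes (84 of 96 member probes, 11 under another symbol). The dye term was fitted on 4 arrays with the replicate number as a fixed block, since duplicateCorrelation, planned for it, could not be estimated from 4 arrays. On simulated data the 15p over 0p fit recovered 100% of 200 genes changed by 1 on the log2 scale, among 17376 genes, with 12 false calls. That change lies beyond the member ratios, which ran from -0.14 to 0.12. The recovery therefore does not show what the fit can find at their sizes. Probe sequences and positions are those of the array files, and motifs and matches were found in Python 3.11.15 with pandas 2.3.3.

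Any member could be named. Given in full are the detected members, then those above background in any channel, for a class with none of these its member of highest net intensity, and the 3 listed hair genes of largest absolute ratio. Members and lists were chosen with earlier results of these data known. Same-numbered arrays deviated from the means of their dye orientation with a correlation of -0.26 across genes, which are not independent replicates, and the numbers pair arrays of the same RNA extracts, per the labels. Sequences are printed for 8 of the 96 member probes.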

Additional observations from a re-analysis of the deposited data

Results flagged for a closer look

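For 9 members the effect of 15p over 0p had opposite signs in the dye orientations, on both arrays of each, against 32.3% of all genes. The difference is given as the log2 ratio of Cy5 over Cy3 from limma's dye term, with adjusted p over all genes. It was 0.25 for Krtap20-2 (adjusted p = 0.0296), 0.20 for Krtap9-1 (0.0772), 0.15 for Krtap16-8 (0.111), 0.12 for Krt73 (0.228), 0.11 for both Krtap5-1 (0.264) and Krtap5-2 (0.218), and 0.063 for Krtap10-10 (0.489). It was -0.17 for Krt72 (0.124) and -0.050 for Krtap8-2 (0.586). Of these, Krtap20-2 alone passed, and its call was not made with a normexp offset of 0. The dye orientations carry the same RNA extracts. No cause was tested.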

How the results depend on the processing

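The counts of called genes, the member median, the share of detected probes and the dye calls were recomputed under the alternatives. With the replicate number as a fixed block (duplicateCorrelation, planned for this replicate block, could not be estimated from 4 arrays) the fit gave 0 called genes, 0 called members and a member median of 0.0268, as without it, and changed no call. Over all genes 1 was called without the filter on dim probes, 1 with probes above background in any channel, 0 to 3120 with 1 array left out and 60 (7 higher, 53 lower) with the pairing of arrays crossed, an alternative chosen after seeing the data, which the correlation of -0.26 between same-numbered arrays led to. Called members were 0 in each of these except 2, Krt72 and Krtap5-3, without the array of replicate 1 that had 15p in Cy5, where prior degrees of freedom were infinite and the lone array of its orientation adds nothing to the spread. The 3120 calls come from that same fit, and 88 came without its counterpart in replicate 2. The member median, 0.0268, was 0.0135 without the filter, 0.00506 with probes above background in any channel, 0.0133 with the mean of a gene's probes, 0.0166 with every detected probe on its own (chosen after seeing the data), 0.0368 with a normexp offset of 0, -0.00408 with median-centred processed signals, 0.0366 with the value table, and 0.00413 to 0.0447 with 1 array left out. Krt36, Krt72, Krt73, Krt86 and Krtap4-8 kept their sign under all 13 alternatives run for single genes, and the other 17 members took both signs, without a call except that of Krtap5-3 given above. Detected member probes numbered 51 where 1 channel sufficed, and 34 under both other rules. Dye differences, 1077 genes and 1 member, became 0 and 0 with a normexp offset of 0 (4108 genes and 4 members at an unadjusted limma p under 0.05), and 13897 and 18 with median centring in place of loess. The cause was not tested. Low signal is a limit: 67 of 96 probes were not detected and stayed out of the tests, and Krt33a, Krt72, Krt86 and Krtap1-4 lie near background.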
